A study of Mus musculus with 6 samples.

Results

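Epithelial cells are held together by desmosomes, adherens junctions and tight junctions and are coupled by gap junctions. The genes described here encode 33 parts of these junctions in mouse, listed by name: 12 of the desmosome, 5 of the adherens junction, 12 of the tight junction and 4 of the gap junction. Of the 33 genes, 32 had a probe set annotated to exactly 1 gene symbol, and for each the probe set of highest average level on the 6 arrays was read. The desmosomal cadherin gene Dsg3 is not analysed here. All 32 passed the filter on low values, as did 13222 genes of the 18193 with such a probe set.

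The RNA came from tumour epithelial cells of benign skin papillomas that had been induced chemically in mice, and it was hybridised to Affymetrix whole-genome mouse arrays. There were 3 arrays of Sox2cKO mice, which were K14CREER:SOX2fl/fl, and 3 of control mice. Both groups had received tamoxifen for 1 week. The tamoxifen-activated Cre of the Sox2cKO mice is driven by the promoter of keratin 14, a keratin of basal keratinocytes, so the deletion of the floxed Sox2 gene is aimed at that layer and its descendants. The sources used here do not give the genotype of the controls, the age and strain of the mice or the number of tumours per sample. The arrays were treated as 3 replicates per group because the design text counts 3 biological experiments. The sort kept cells positive for Epcam and alpha6 integrin and negative for CD45, CD31 and CD140a, which mark leukocytes, endothelium and fibroblasts.

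Values are the deposited ones, on a log2 scale, so that a difference of 1 is a doubling. Sox2 read 7.19, 8.31 and 8.18 in controls and 4.07, 4.63 and 3.23 in Sox2cKO, lower in every Sox2cKO array (limma adjusted p = 0.316). Control replicates 2 and 3 carried a female pattern of Xist and Eif2s3y, and control replicate 1 and all 3 Sox2cKO arrays a male pattern. The groups were therefore not matched for sex, and the members' differences, class medians and counts were also computed with sex as a covariate, which compares Sox2cKO with control replicate 1 alone. Of the sort genes, Epcam read 11.07, 11.42 and 11.43 in controls and 11.24, 10.72 and 10.57 in Sox2cKO, a difference of -0.46. Itga6, the gene of alpha6 integrin, read 12.07 to 12.45. Pdgfra, the gene of CD140a, read 5.52, 5.32 and 5.05 in controls and 5.49, 6.21 and 7.25 in Sox2cKO, a difference of 1.02. Ptprc, the gene of CD45, read 4.58 to 5.51. The basal keratin genes Krt14 and Krt5 read 13.94 to 14.16 and 13.32 to 13.44 on the 6 arrays. Of the 6 endothelial marker genes, 4 exceeded the 40th percentile of the array on 0 of 6, Pecam1 and Cdh5 among them, and Kdr and Cldn5 exceeded it on all 6, at 5.78 to 6.17 and 5.08 to 5.47.

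As background, desmosomal cadherins (desmogleins and desmocollins) reach across the gap between neighbouring cells, and plakoglobin, plakophilins and desmoplakin tie them to the keratin filaments inside. Adherens junctions couple classical cadherins through catenins to actin, tight junctions seal the space between cells with claudins and occludin bound to scaffold proteins, and connexins form channels that let small molecules pass from cell to cell. In stratified epithelium the set of junction proteins changes as keratinocytes leave the basal layer: Dsg1 and Dsc1 belong to the upper layers.

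No junction gene differed between Sox2cKO and control cells past the threshold. In limma, 0 of the 32 members had an adjusted p under 0.05, as did 0 of all genes tested (0%), and each of the 32 had an adjusted p of 0.999. At an unadjusted p under 0.05 there were 0 members, where 2.68% of all genes tested reached that level. With the 1 probe set read per gene, the values of the groups overlapped in all 32 members. In 5.85% of all genes, all 3 values of one group lay above all 3 of the other. Other tested probe sets of Dsp, Cldn12 and Dsg2 did set the groups apart, as given below. The share of such probe sets on the whole array was not counted. The differences, Sox2cKO minus control, lay above 0 in 23 members and below 0 in 9, with a median of 0.08 on the log2 scale against a median near 0 for all genes tested, of which 50.6% lay above 0. With the sex covariate 15 members lay above 0 and 17 below, with a median of -0.012. The median size of a difference, regardless of sign, was 0.12 for the members and 0.10 for all genes.

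The members were unlike each other in how far arrays of one group differed. The standard deviation within groups ran from 0.05 for the scaffold gene Tjp1 to 1.34 for the desmoglein gene Dsg1a, while the median over all genes tested was 0.19. In 7 members it lay above the 95th percentile of all genes tested, a level that 5.01% of all genes exceed. These were Dsg1a, Dsc1, Cldn1, Cldn7, Cldn8, Ocln and Gjb6. Their intervals were wide, and the values below show which arrays carried the spread. Such a spread was not limited to the members. The junction gene Dsg1b and the suprabasal (upper-layer) genes Krt1, Krt10 and Ivl lay at percentiles 99.2, 96.8, 96.8 and 96.0, and the other tested suprabasal genes lay below the 95th. The median standard deviation was 0.27 for the members and 0.21 for the other junction genes described at the end. In 15 of the 32 members, on the other hand, the whole 95% interval of the difference lay within a fold of 1.5 in either direction (68.8% of all genes).

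**Figure D1:**
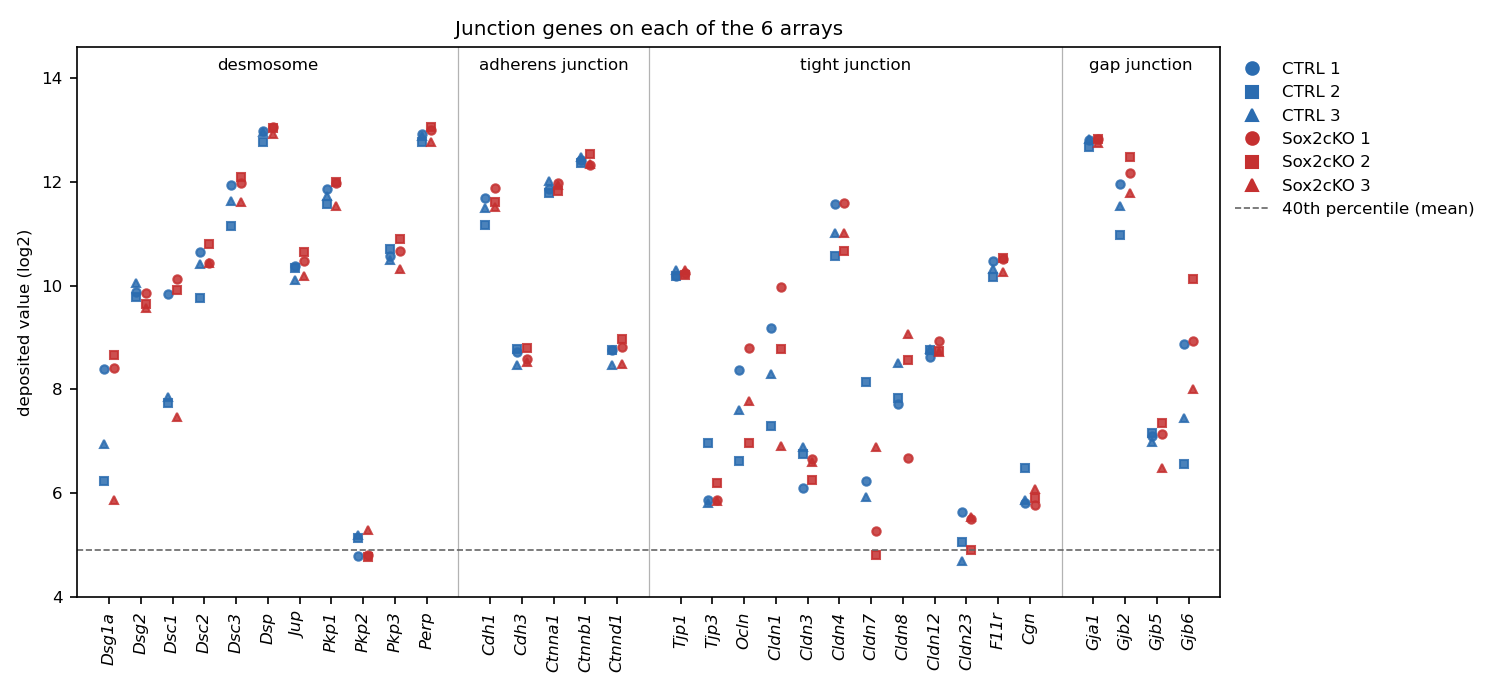
Deposited log2 value (vertical axis) of each of the 32 junction genes measured, grouped by junction class along the horizontal axis. Blue symbols are the 3 control arrays and red symbols the 3 Sox2cKO arrays, circles, squares and triangles mark replicates 1, 2 and 3, and the dashed line is the mean over arrays of the 40th percentile. Red and blue overlap for every gene, and Dsg1a, Dsc1, Cldn1, Cldn7, Ocln, Cldn8 and Gjb6 are spread over more than 2 log2 units.

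**Figure D2:**
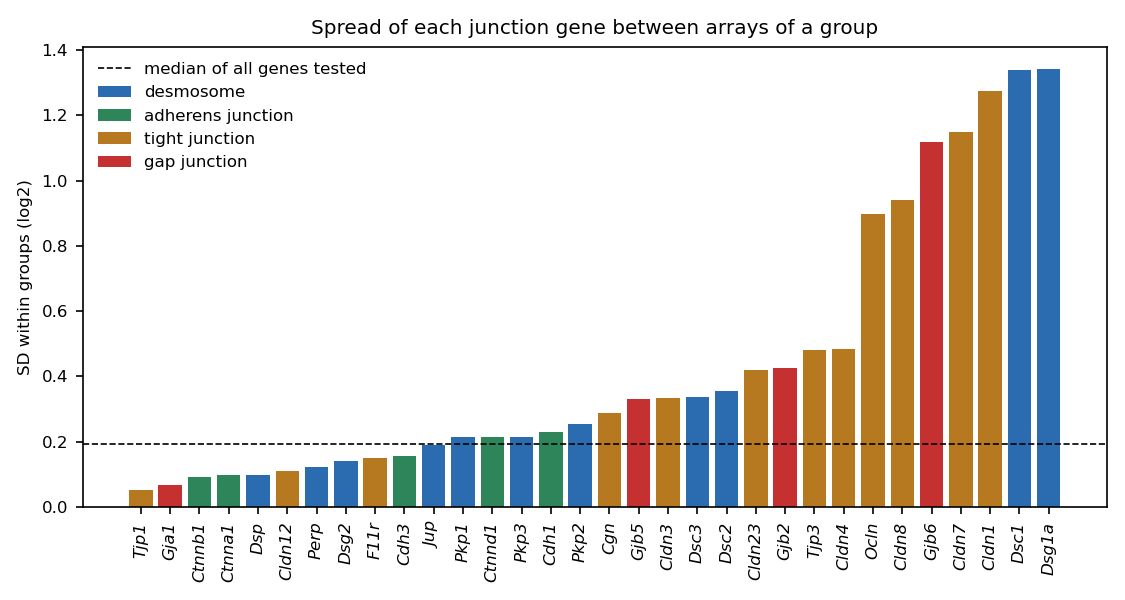
Standard deviation of the log2 value between arrays of a group (pooled over both groups) for each junction gene, in rising order, with bars coloured by junction class. The dashed line at 0.19 is the median over all genes tested. The bars run from 0.05 for Tjp1 to 1.34 for Dsg1a.

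The desmosome showed both extremes. Dsp and Perp stayed within 0.29 log2 units over the 6 arrays, and 2 of its cadherin genes varied by more than 2 log2 units. Of the 11 members measured, 9 lay above 0 and 2 below, with a median difference of 0.11, and 0 passed the threshold in either direction. With the sex covariate the median was -0.03.

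Desmoplakin, encoded by Dsp, links the desmosomal plaque to keratin filaments. Dsp read 12.97, 12.77 and 12.97 in controls and 13.06, 13.05 and 12.92 in Sox2cKO, a difference of 0.11 with a standard error of 0.12 and a 95% interval from -0.18 to 0.39. The groups overlapped through Sox2cKO replicate 3. The 2 other tested probe sets of Dsp pointed the same way, at 0.18 and 0.82, and in both every Sox2cKO array lay above every control. With the mean of all 3 the difference was 0.37, again with every Sox2cKO array above every control (unadjusted p = 0.0405, adjusted p = 1.00 in limma). Perp, a tetraspan membrane protein needed for desmosomes in stratified epithelium, read 12.93, 12.78 and 12.89 in controls and 13.01, 13.06 and 12.77 in Sox2cKO, and the interval of its difference ran from -0.22 to 0.38.

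The plaque genes of the armadillo family varied about as much as a typical gene, with standard deviations within groups of 0.19 for Jup, 0.21 for Pkp1, 0.22 for Pkp3 and 0.25 for Pkp2. Jup, which encodes plakoglobin and serves adherens junctions too, read 10.38, 10.34 and 10.12 in controls and 10.48, 10.64 and 10.19 in Sox2cKO. Each Sox2cKO array lay above the control of the same replicate number, by 0.10, 0.30 and 0.07, but the groups overlapped. The plakophilin genes Pkp1 and Pkp3 differed by 0.11 and 0.04, with intervals from -0.28 to 0.51 and from -0.36 to 0.43. The third plakophilin gene, Pkp2, read 4.77 to 5.29, and 3 of its 6 values lay above the 40th percentile of the array, so its difference of -0.09 was measured close to that floor.

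Among the desmosomal cadherins, Dsc1 and Dsg1a, both of the upper layers, split the arrays across the groups. Dsc1 read 9.84, 7.74 and 7.85 in controls and 10.13, 9.93 and 7.47 in Sox2cKO. Dsg1a read 8.39, 6.24 and 6.95 in controls and 8.41, 8.67 and 5.87 in Sox2cKO. For both genes control replicate 1 sat with Sox2cKO replicates 1 and 2 at the high level, and Sox2cKO replicate 3 gave the lowest value of all 6 arrays. The mean differences of 0.70 for Dsc1 (standard error 0.82, interval from -1.22 to 2.62) and 0.45 for Dsg1a (standard error 0.82, interval from -1.47 to 2.38) were smaller than the spread within groups. Against control replicate 1 alone they turned to -0.67 and -0.75, and without Sox2cKO replicate 3 they were 1.55 and 1.34. The second probe set of Dsc1 differed by 0.88. The near-identical copy Dsg1b read 8.89, 6.27 and 8.14 in controls and 8.80, 8.88 and 7.98 in Sox2cKO, and whether the probes of Dsg1a and Dsg1b tell the copies apart was not tested.

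Dsc2 and Dsc3, the desmocollins found in the basal layers as well, varied less and had their lowest value in control replicate 2. Dsc3 read 11.95, 11.15 and 11.62 in controls and 11.98, 12.10 and 11.61 in Sox2cKO, a difference of 0.32 with an interval from -0.21 to 0.86. Dsc2 read 10.64, 9.77 and 10.41 in controls and 10.44, 10.80 and 10.44 in Sox2cKO, a difference of 0.28. The groups overlapped for both. Dsg2, the desmoglein found in most epithelia, was the desmosomal gene with the smallest unadjusted p (0.161) and pointed the other way. It read 9.88, 9.78 and 10.05 in controls and 9.86, 9.65 and 9.57 in Sox2cKO, and each Sox2cKO array differed from the control of the same number by -0.02, -0.13 and -0.48. Its difference was -0.21, but 2 of its 6 tested probe sets had the opposite sign, and the range over probe sets was -0.64 to 0.19. In the mouse gene order Dsc3, Dsc2, Dsc1, Dsg1c, Dsg1a, Dsg1b, Dsg4, Dsg3 and Dsg2 follow each other with 0 other protein-coding genes between neighbours. Members of this row nevertheless differed in their spread within groups, from 0.14 for Dsg2 through 0.34 for Dsc3 and 0.35 for Dsc2 to 1.34 for Dsc1 and Dsg1a.

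The adherens junction was the steadiest class. All 5 members overlapped between groups, with differences from -0.03 to 0.21 and a median of 0.02. Cdh1, which encodes E-cadherin, read 11.69, 11.18 and 11.50 in controls and 11.89, 11.61 and 11.51 in Sox2cKO. Its difference was 0.21, with a standard error of 0.17 and an interval from -0.19 to 0.62, and it was higher in each numbered pair, by 0.20, 0.43 and 0.01. Against control replicate 1 alone Cdh1 differed by -0.02. Cdh3, the gene of P-cadherin and the neighbour of Cdh1 in the genome, read 8.72, 8.79 and 8.46 in controls and 8.59, 8.80 and 8.52 in Sox2cKO, a difference of -0.02 with an interval from -0.35 to 0.31.

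Ctnnb1 and Ctnna1 had the narrowest intervals of the class. Ctnnb1, which encodes beta-catenin, the cadherin partner that is also the transcriptional effector of Wnt signalling, read 12.42, 12.37 and 12.49 in controls and 12.33, 12.53 and 12.34 in Sox2cKO. The difference was -0.03 and its interval ran from -0.31 to 0.25, so a fold above 1.24 in either direction lay outside it. The other 2 tested probe sets of Ctnnb1 had the opposite sign, up to 0.27. Ctnna1, the alpha-catenin gene that links the complex to actin, differed by 0.02 (interval from -0.26 to 0.30). Ctnnd1, the gene of p120 catenin, which keeps cadherins at the membrane, differed by 0.10 (interval from -0.29 to 0.49).

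The tight junction genes had a median difference of 0.05, with 8 above 0 and 4 below, and 0 of 12 passed. The class joined the steadiest gene of all members with several of the most variable ones. Tjp1, which encodes the scaffold protein ZO-1, read 10.19, 10.19 and 10.29 in controls and 10.25, 10.20 and 10.30 in Sox2cKO, a difference of 0.03 with an interval from -0.23 to 0.28. F11r, which encodes the adhesion molecule JAM-A, differed by 0.12 (interval from -0.21 to 0.44) and Cldn12 by 0.07 (interval from -0.22 to 0.36). The second tested probe set of Cldn12 differed by 0.09, with every Sox2cKO array above every control.

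Occludin and claudin-4 followed the replicate number rather than the genotype. Ocln, the gene of the membrane protein occludin, read 8.38, 6.63 and 7.61 in controls and 8.80, 6.96 and 7.78 in Sox2cKO. Cldn4 read 11.58, 10.57 and 11.02 in controls and 11.58, 10.67 and 11.01 in Sox2cKO. In both genes and both groups replicate 1 was highest, replicate 3 intermediate and replicate 2 lowest. Within numbered pairs Ocln was higher in Sox2cKO by 0.42, 0.34 and 0.17, so that with the replicate number as a block its difference of 0.31 had an interval from 0.03 to 0.59, against -0.99 to 1.61 without it (unadjusted p = 0.0373 and adjusted p = 0.979 in limma with the block). It was then 1 of 32 members at an unadjusted p under 0.05, where 4.96% of all genes reached that level with the block. Without the block, the difference of Ocln was -0.53 against control replicate 1 alone, -0.14 without control replicate 2 and -0.16 without Sox2cKO replicate 1. The second probe set of Ocln differed by 0.08. For Cldn4 the pairs differed by no more than 0.09, and the interval of its difference of 0.03 narrowed from -0.70 to 0.76 without the block to -0.23 to 0.30 with it. Cldn3, the neighbour of Cldn4 in the genome, did not repeat that order. It read 6.10, 6.76 and 6.88 in controls and 6.66, 6.26 and 6.60 in Sox2cKO.

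Claudin-1, whose loss breaks the water barrier of mouse skin, had the widest spread within groups among the claudins. Its gene Cldn1 read 9.18, 7.30 and 8.29 in controls and 9.97, 8.78 and 6.92 in Sox2cKO, with the lowest value in Sox2cKO replicate 3. The difference of 0.30 had a standard error of 0.78, and it was -0.62 against control replicate 1 alone and 1.12 without Sox2cKO replicate 3. Cldn8 read 7.72, 7.84 and 8.51 in controls and 6.67, 8.57 and 9.06 in Sox2cKO, so that Sox2cKO replicates 1 and 3 gave the lowest and the highest value. Its difference was 0.08, but 0.80 without Sox2cKO replicate 1.

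Claudin-7 had the largest difference below 0 of all members. Cldn7 read 6.23, 8.14 and 5.93 in controls and 5.27, 4.81 and 6.89 in Sox2cKO, a difference of -1.11 with a standard error of 0.70 and an interval from -2.76 to 0.54 (unadjusted p = 0.157). Control replicate 2 stood highest, Sox2cKO replicate 2 fell below the 40th percentile of the array, and Sox2cKO replicate 3 lay above 2 of the 3 controls. Without control replicate 2 the difference was -0.42, and without Sox2cKO replicate 3 it was -1.73. The scaffold genes Tjp3 and Cgn (ZO-3 and cingulin) also peaked in control replicate 2. Tjp3 read 6.97 there and 5.81 to 6.20 on the other arrays. Cgn read 6.49 there and 5.77 to 6.08 elsewhere. The same array had the highest levels of the sebocyte genes Elovl3 (8.69 there, 4.19 to 6.43 elsewhere) and Far2 (7.86 there, 3.81 to 6.18 elsewhere). Scd1 also peaked there, at 11.65, but Plin2 did not, at 10.35 there and 10.58 in control replicate 3. All 4 tested genes of the sebocyte list together scored 1.41 in control replicate 2 and -1.10 to 0.28 in the others. The part of sebocyte RNA in these junction values was not tested. Cldn23 read 5.63, 5.06 and 4.69 in controls and 5.51, 4.90 and 5.53 in Sox2cKO, and 4 of its 6 values exceeded the 40th percentile.

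The gap junction class had the largest differences above 0, in Gjb6 and Gjb2. Neither passed the threshold. Gjb6, a connexin gene whose mutations cause a human skin and nail disorder, read 8.88, 6.56 and 7.45 in controls and 8.93, 10.12 and 8.0 in Sox2cKO, a difference of 1.39 (2.61-fold) with a standard error of 0.69 and an interval from -0.22 to 2.99 (unadjusted p = 0.0812). Gjb2, a connexin gene known for its part in hereditary deafness and skin disease, read 11.97, 10.98 and 11.54 in controls and 12.17, 12.47 and 11.78 in Sox2cKO, a difference of 0.64 (1.56-fold) with a standard error of 0.28 and an interval from -0.01 to 1.30 (unadjusted p = 0.0532, the smallest among the members). For both genes the groups overlapped only because control replicate 1 lay above Sox2cKO replicate 3. Without control replicate 1 they differed by 2.01 and 0.88, and against control replicate 1 alone by 0.14 and 0.17. The former comparison sets only controls of the female pattern against Sox2cKO arrays of the male pattern. Most of the mean difference lay in the pair numbered 2, at 3.56 for Gjb6 and 1.49 for Gjb2, while the other pairs gave 0.05 and 0.55 for Gjb6 and 0.20 and 0.24 for Gjb2.

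Gjb2 and Gjb6 are neighbours, with 0 protein-coding genes between them. Because their values moved together over the arrays, the 250 bases before each start site are shown, from RefSeq on build GRCm38.p6, in 5′ to 3′ direction of the gene. The Gjb2 window is chr14:57104703-57104952 and the Gjb6 window chr14:57133612-57133861, both on the minus strand. Capitals mark the GC box GGGCGG, searched on both strands.
Gjb2: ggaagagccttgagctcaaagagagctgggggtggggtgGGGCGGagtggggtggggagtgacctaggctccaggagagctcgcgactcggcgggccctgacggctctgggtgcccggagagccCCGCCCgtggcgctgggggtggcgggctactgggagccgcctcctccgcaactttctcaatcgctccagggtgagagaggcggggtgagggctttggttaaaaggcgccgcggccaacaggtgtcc
Gjb6: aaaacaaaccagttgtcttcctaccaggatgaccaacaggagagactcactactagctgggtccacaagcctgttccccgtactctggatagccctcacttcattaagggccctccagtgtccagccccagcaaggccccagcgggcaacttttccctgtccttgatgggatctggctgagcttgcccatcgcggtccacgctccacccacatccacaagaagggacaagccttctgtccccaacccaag
The windows differ in base composition. That of Gjb2 held 69.2% G and C, 18 CpG pairs and 2 GC boxes, and that of Gjb6 held 56.8% G and C, 5 CpG pairs and 0 GC boxes. A GC box occurs in 32.7% of the 32851 promoter windows of this length. Neither window contained the SOX core words ACAAAG (in 16.5% of all windows) or ACAATG (10.7%), the AP-1 word TGANTCA (6.75%) or TATAAA (12.4%), on either strand. These are matches of letters and not measured binding.

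Gja1 and Gjb5 did not share the pattern of the neighbours. Gja1, the gene of the main connexin of the basal layer, which basal keratinocytes and fibroblasts both make, read 12.80, 12.67 and 12.83 in controls and 12.82, 12.83 and 12.75 in Sox2cKO, a difference of 0.04 with an interval from -0.23 to 0.30. Its 5 other tested probe sets ranged from -0.35 to 0.31. Gjb5, another epidermal connexin gene, read 7.10, 7.16 and 6.98 in controls and 7.14, 7.36 and 6.48 in Sox2cKO, a difference of -0.09 with an interval from -0.62 to 0.44.

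**Figure D3:**
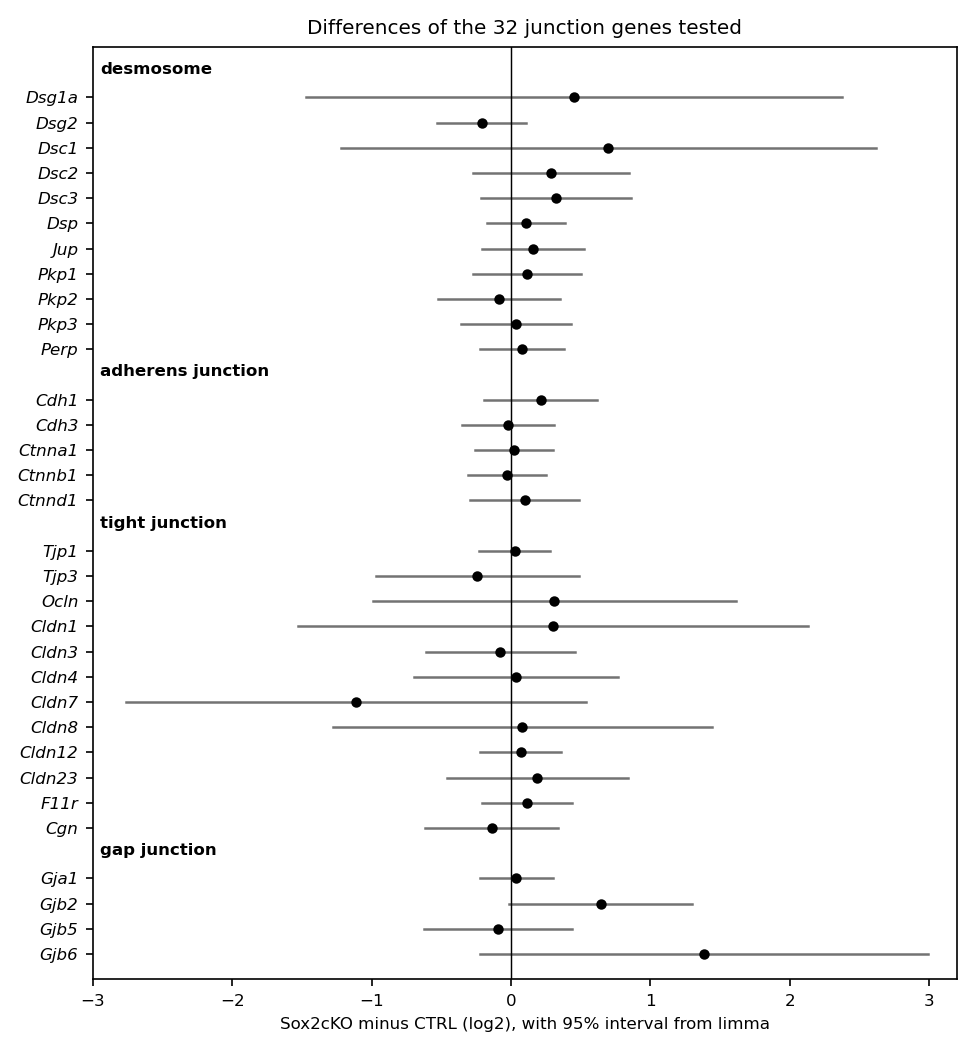
Difference of the log2 value, Sox2cKO minus control, for each of the 32 junction genes tested (points), with its 95% interval from limma (lines), grouped by junction class. Every interval includes 0, the widest are those of Dsg1a, Dsc1, Cldn1, Cldn7 and Gjb6, and Gjb2 has an interval from -0.01 to 1.30.

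Seen array by array, the scores of the desmosome, gap junction and adherens junction classes lay above and below 0 on the same arrays as the suprabasal keratinocyte score. The class score is the mean, over its members, of the log2 value minus that gene's mean over the 6 arrays. It is not weighted, so genes of large spread count most: Dsg1a and Dsc1 (1.34 each) in the desmosome and Gjb6 (1.12) in the gap junction class. Not every member followed its class score. Dsg2, Ctnna1, Ctnnb1 and Gja1, for example, had their highest control value in control replicate 3, and Gjb5 in control replicate 2. Desmosome scores were 0.22, -0.35 and -0.14 in controls and 0.27, 0.34 and -0.35 in Sox2cKO. Gap junction scores were 0.20, -0.65 and -0.29 in controls and 0.27, 0.70 and -0.24 in Sox2cKO. Adherens junction scores were much smaller, at 0.05, -0.07 and -0.06 in controls and 0.07, 0.10 and -0.09 in Sox2cKO. In all 3 classes control replicate 1 and Sox2cKO replicates 1 and 2 lay above 0 and the other 3 arrays below. The suprabasal list, which shares no gene with the junction members, scored 0.22, -0.32 and -0.29 in controls and 0.29, 0.28 and -0.18 in Sox2cKO, with the same arrays above and below 0. The other junction genes described at the end scored 0.06, -0.06 and -0.03 in controls and 0.09, 0.02 and -0.08 in Sox2cKO, again with the same arrays above 0. The suprabasal genes were not uniform in Sox2cKO replicate 3. Krt1 had its lowest value there, at 11.76, and Krt10 read 12.41 there and 12.44 in control replicate 2, but Ivl read 8.04 there against 6.65 in control replicate 3, and Lor, at 6.47, lay above all 3 controls.

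Tight junction scores did not divide the arrays in this way and lay between -0.18 and 0.10. The 8 basal keratinocyte genes together scored -0.06 to 0.04 on all arrays, with 4 differences above 0 and 4 below. Groups were apart in 1 of the 8, Krt15, which was lower in Sox2cKO (3.12% of all genes). Krt15 read 11.14, 11.52 and 11.25 in controls and 10.86, 11.06 and 10.32 in Sox2cKO, a difference of -0.56 (adjusted p = 0.999 in limma). Fibroblast and pericyte markers lay above 0 in 11 of 12 genes and scored -0.18, -0.26 and -1.02 in controls and -0.12, 0.31 and 1.27 in Sox2cKO, with the highest value in Sox2cKO replicate 3, and Dcn read 10.71 there and 6.81 to 9.30 on the other arrays. Langerhans cell markers lay below 0 in 3 of 4 genes, with a median difference of -1.17. The 3 were H2-Ab1 (-1.26), Cd74 (-1.09) and H2-Aa (-1.38). The other gene, Cd207, did not share this fall: it read 4.81 to 5.18 on all arrays and differed by 0.01. The part of suprabasal, fibroblast or Langerhans cell RNA in the junction values was not tested, and in a bulk sample fewer cells of a type and less RNA per cell cannot be told apart.

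**Figure D4:**
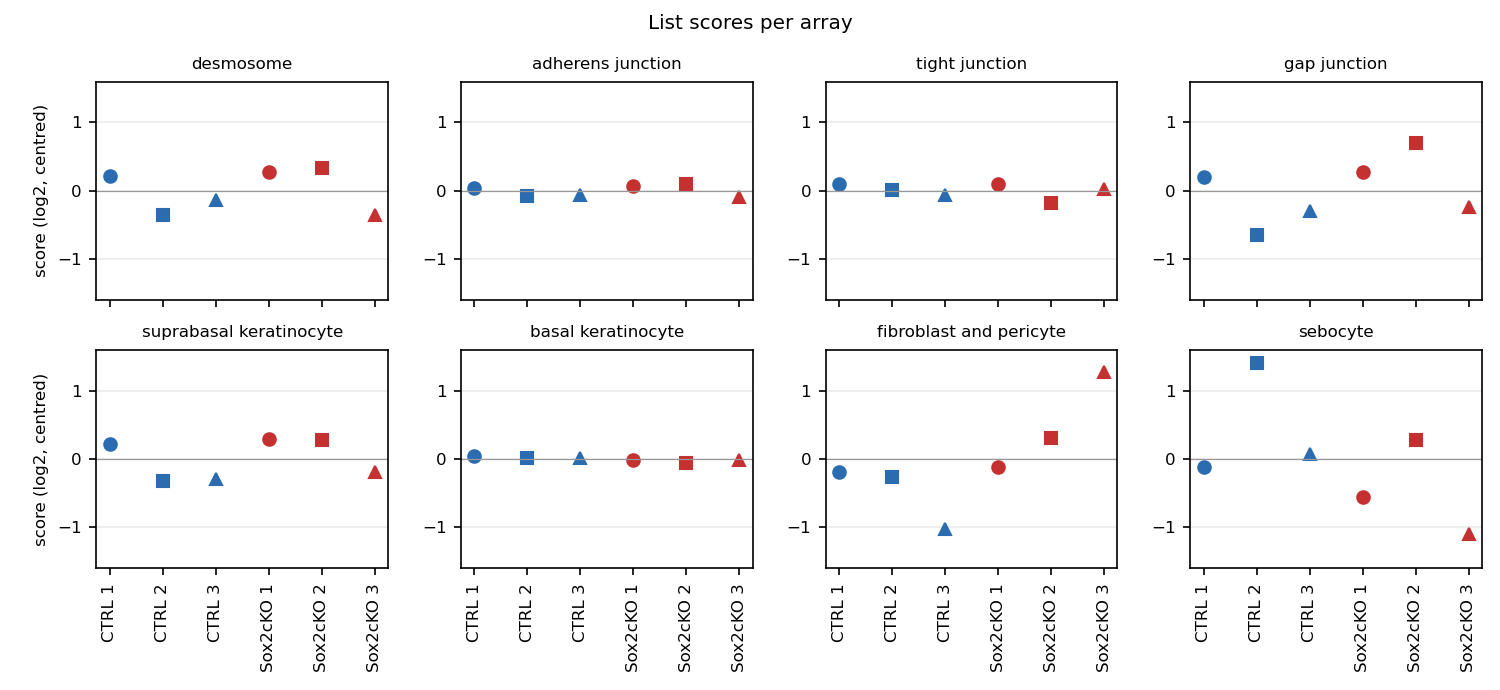
Score of each gene list (mean centred log2 value, vertical axis) on each array (horizontal axis), for the 4 junction classes in the upper row and 4 cell type marker lists in the lower row. Control arrays are blue and Sox2cKO arrays red. Desmosome, adherens junction, gap junction and suprabasal scores lie above 0 on control replicate 1 and Sox2cKO replicates 1 and 2 and below 0 on the other arrays, while fibroblast scores peak at 1.27 on Sox2cKO replicate 3 and sebocyte scores at 1.41 on control replicate 2.

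The count of members with groups apart rested on single arrays. Without Sox2cKO replicate 3, all values of one group lay above those of the other in 12 of 32 members, where 16.9% of all genes did so. Of these, 11 were higher in Sox2cKO (8.43% of all genes), among them Dsg1a, Dsc1, Dsc3, Dsp, Jup, Pkp1 and Perp of the desmosome and Gjb2 and Gjb6, and 1, Cldn7, was lower (8.48%). All 12 had an adjusted p of 1.00 in limma, and 4 had an unadjusted p under 0.05 (3.97% of all genes). Without control replicate 1, the count was 5 of 32 (18% of all genes). All controls left then had the female pattern and all Sox2cKO arrays the male pattern, so genotype and sex could not be told apart. Here Dsc2, Cdh1, Gjb2 and Gjb6 were higher (9.86% of all genes) and Cldn3 was lower (8.15%), and Gjb2 and Gjb6 had an unadjusted p under 0.05 (4.82% of all genes). Leaving out any of the other 4 arrays gave 1 or 2 members: 1 without control replicate 2 (10.8% of all genes), 1 without control replicate 3 (13.2%), 2 without Sox2cKO replicate 1 (13.6%) and 1 without Sox2cKO replicate 2 (20.1%). By numbered pairs, 8 members had the same sign in all 3 pairs (24.9% of all genes), of which 7 were higher in Sox2cKO (12.1%) and 1, Dsg2, was lower (12.7%).

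Beyond the members, 64 other genes, of these junctions or related to them, were examined, and 46 of them were tested. Another 13 fell below the filter, and the rest are not analysed here. Of the 46, 0 passed the adjusted threshold in either direction, 24 lay above 0 and 22 below, with a median of 0.01. Groups were apart in 4 of the 46, against 5.85% of all genes, with Cgnl1 and Cldn5 higher (2.73% of all genes) and Mpdz and Magi1 lower (3.12%). Mpdz encodes a tight junction scaffold with many PDZ domains, and it was the only one at an unadjusted p under 0.05 (0.0173). It read 8.09, 8.32 and 8.39 in controls and 7.98, 7.48 and 7.83 in Sox2cKO, a difference of -0.51 with a standard error of 0.17 and an adjusted p of 0.999 in limma. The related scaffold gene Magi1 differed by -0.30 and Magi3 by 0.31. Lsr, whose product sits where 3 cells meet, differed by -0.30. Cgnl1, which encodes paracingulin, differed by 0.19 and Cldn10 by 0.20.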

How the data were processed

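The table used here holds 1 value per probe set and array for 45101 probe sets, deposited on a log2 scale. The scale was read from the values, because no source used here names it. R 2.14.0 appears in the submitters' processing notes. How the authors corrected background, summarised probes and normalised the arrays is not given in the sources used here. Array medians lay between 5.42 and 5.46, so a shift shared by most genes would not be seen. Values flatten near background, which was 3.30 to 3.44 for the bacterial Trpn control probe sets. Gene names came from the platform annotation, which gave 34945 probe sets exactly 1 symbol. Testing required values above the array's 40th percentile (4.90 to 4.94) on 3 or more of the 6 arrays, and the tested probe set with the highest mean stood for the gene.

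Differences, Sox2cKO minus control over 3 arrays each, entered lmFit and eBayes of limma (version 3.58.1, R 4.3.3; two-sided) over 13222 genes with Benjamini-Hochberg adjustment and a threshold of 0.05. The procedure was tested on simulated data. An exact permutation test of 3 against 3 cannot go below 0.1 and was not used. The number of arrays limits the precision. Same-numbered arrays deviated together from their group means (correlation over genes 0.206 to 0.288 in the 3 pairs, -0.333 to 0.0636 otherwise), above the level of 0.1 set for treating numbers as pairs. The main fit nevertheless left the arrays unpaired, and its p-values and intervals are given unless the block is named. With the replicate number as a block the interval ran from -0.08 to 1.37 for Gjb2 and from -0.40 to 3.17 for Gjb6. What a number marks is not stated in the labels. Promoter letters were searched with Python 3.11.15. The members, gene lists and alternatives were chosen with earlier results of these data known. All members are named, as are the 3 other junction genes of smallest unadjusted p in each direction. Sox2, the sex and sort genes and some genes of the marker lists are named too. Cldn5, Dsg1b, H2-Aa, Krt15, Lor and Plin2 were chosen after their values were seen.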

Additional observations from a re-analysis of the deposited data

How the results depend on the processing

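None of the 32 members passed an adjusted p of 0.05 in limma under any alternative run, and the lowest, 0.854 for Gjb6, came without control replicate 1. That run sets only controls of the female pattern against Sox2cKO arrays of the male pattern. Over all genes, 1 passed with the sex covariate, and 0 to 5 when an array was left out. The count of members at an unadjusted p under 0.05 was 1 without the filter (Gjb2), 1 with the replicate block (Ocln), 1 with the mean of all tested probe sets (Dsp), and 0 to 4 when an array was left out. In the same order, the shares of all genes were 2.69%, 4.96%, 2.72% and 1.51% to 4.82%. Members with groups apart numbered 1 with the mean of all tested probe sets and 1 to 12 without an array, and other junction genes 2 and 6 to 9. Of all genes, 6.32% were apart with the mean and 10.8% to 20.1% without an array. The replicate block moved the count of all genes at an unadjusted p under 0.05 from 354 to 656 and changed no adjusted call.

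The sign of the difference turned in 16 members with the sex covariate: Dsg1a -0.75, Dsc1 -0.67, Dsc2 -0.085, Dsc3 -0.049, Pkp1 -0.032, Pkp2 0.16, Cdh1 -0.021, Ctnnd1 -0.0025, Tjp3 0.098, Ocln -0.53, Cldn1 -0.62, Cldn3 0.40, Cldn4 -0.49, Cldn23 -0.32, F11r -0.033 and Cgn 0.10. That fit sets Sox2cKO against control replicate 1 alone, the only male control. With the mean of all tested probe sets Ctnna1 turned to -0.11 and Ctnnb1 to 0.14. Leaving out 1 array turned the sign in 18 members, with these ranges: Dsg1a -0.057 to 1.34, Pkp2 -0.25 to 0.0086, Pkp3 -0.095 to 0.19, Cdh3 -0.12 to 0.047, Ctnna1 -0.029 to 0.085, Ctnnb1 -0.095 to 0.0085, Ctnnd1 -0.0072 to 0.24, Tjp3 -0.45 to 0.13, Ocln -0.16 to 0.75, Cldn1 -0.41 to 1.12, Cldn3 -0.32 to 0.072, Cldn4 -0.22 to 0.29, Cldn8 -0.40 to 0.80, Cldn12 -0.00079 to 0.11, Cldn23 -0.029 to 0.44, Cgn -0.26 to 0.078, Gja1 -0.011 to 0.068 and Gjb5 -0.27 to 0.17. The median of the tight junction members ran from -0.11 to 0.066. The cause of these changes was not tested. Gjb2 stayed between 0.39 and 0.88 and Gjb6 between 0.83 and 2.01 when an array was left out. Both upper ends came without control replicate 1, the only male control. With the sex covariate both differences fell below these ranges, as given above for control replicate 1 alone. Pkp2, Cldn23 and Cldn7 were the members with values under the 40th percentile of the array, with 3, 4 and 5 of 6 values above it.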
